A study of Mus musculus with 6 samples.

Results

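The Notch receptors Notch1, Notch2 and Notch3, the ligands Jag1, Jag2 and Dll1, the DNA-binding factor Rbpj and the target genes Hes1, Hey1 and Heyl were followed in primary mouse chondrocytes after knockdown of pyruvate kinase M2. The genes were picked by name as pathway members, with earlier results of these data known. All 10 had a row among the 55416 genes of the deposited table. Of these, 9 passed the filter on low counts together with 15269 genes in all, and Heyl did not.

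Notch signaling works between neighboring cells. A Jagged or Delta-like ligand on one cell pulls on a Notch receptor on the next, the receptor is cut by ADAM10 and then by γ-secretase, and the released intracellular domain binds RBPJ on DNA together with a Mastermind coactivator and switches on Hes and Hey repressor genes. Without the intracellular domain, RBPJ sits on the same sites with corepressors. In cartilage the pathway restrains chondrogenic differentiation and is active in progenitor and prehypertrophic cells, and its prolonged activity in joints has been tied to matrix loss.

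The control group (siNC) received a scrambled siRNA and the treated group (siPkm2) an siRNA against Pkm2, with 3 libraries each. By the labels, cells of both groups came from neonatal mouse knee joints, with a wild-type genotype given for siNC, whereas the study's supplementary methods describe chondrocytes from older mice. Cells were grown in DMEM/F12 with FBS, and bulk RNA was sequenced. The titles call all 3 treated libraries siPKM2, while the genotype labels count upward from PKM2 to PKM3 and PKM4 knockdown, and the titles were followed. The labels do not say that the libraries of a group came from separate cultures or litters, so p-values measure only the spread between these libraries. Bulk RNA cannot tell fewer cells of a type from less RNA per cell.

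Total estimated counts lay between 22317065 and 25691096 per library. The targeted gene Pkm, counted over both of its splice forms, had 1654, 2209 and 1293 TPM (a share of all transcripts in the library, corrected for transcript length) in siNC and 245, 428 and 231 TPM in siPkm2. The groups did not overlap, and the log2 fold change was -2.51 with a standard error (SE) of 0.33. Summed levels of 13 chondrocyte markers such as Col2a1 reached 4588 to 22419 TPM in siNC and 6117 to 18387 TPM in siPkm2. Replicate 2 of both groups stood apart. Its chondrocyte sum was the lowest of each group, and its sum over 10 inflammatory genes was 36981 TPM in siNC and 34675 TPM in siPkm2, against 56.7 to 348 TPM in the other 4 libraries.

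Libraries with the same replicate number moved together across genes, so each gene was fitted both without and with the replicate number as a block. With the block, p-values rest only on the spread left after differences between replicate numbers are taken out. Without the block, 0 of the 9 tested Notch genes passed edgeR's quasi-likelihood test at a Benjamini-Hochberg adjusted p under 0.05, beside 0.0% of all genes tested. At an unadjusted p under 0.05 there was 1, Jag1, beside 17.6% of all genes, and DESeq2 without the block called 0 of the 9 beside 5.38%. With the block, 4 of the 9 passed at an adjusted p under 0.05, which is what called means in the following. Hes1 rose, and Rbpj, Notch3 and Jag1 fell. Over all genes the same fit called 23.1%, with 12.3% (1874 genes) higher and 10.8% (1650) lower, or 1478 higher and 2061 lower with upper-quartile scaling. Of the 4 genes, 1, Hes1, also changed by more than 2-fold, beside 5.83% of all genes.

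The same 4 genes moved in one direction in all 3 replicate pairs, beside 61.1% of all genes tested. In 1 of the 9, Jag1, the TPM values of the groups did not overlap, beside 22.8% of all genes. With the block, leaving out pair 2 left the same 4 genes at an adjusted p under 0.05, beside 39.1% of all genes, while leaving out pair 1 or pair 3 left 0 of 9, beside 0.0% of all genes in each case. The same 4 genes also passed with the block in DESeq2, with RLE or upper-quartile factors, without the filter (10 members tested) and with at least 10 counts in every library (8 members tested), beside 26.9%, 23.3%, 23.2%, 14.4% and 27.1% of all genes. The 2-fold threshold left 1, Hes1, in each of these fits, beside 7.03%, 5.89%, 6.12%, 4.05% and 5.81%, and 1 without pair 2, beside 10.8%. The median log2 fold change of the 9 genes was -0.08 without the block and -0.13 with it, against -0.02 and -0.01 over all genes.

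**Figure D1:**
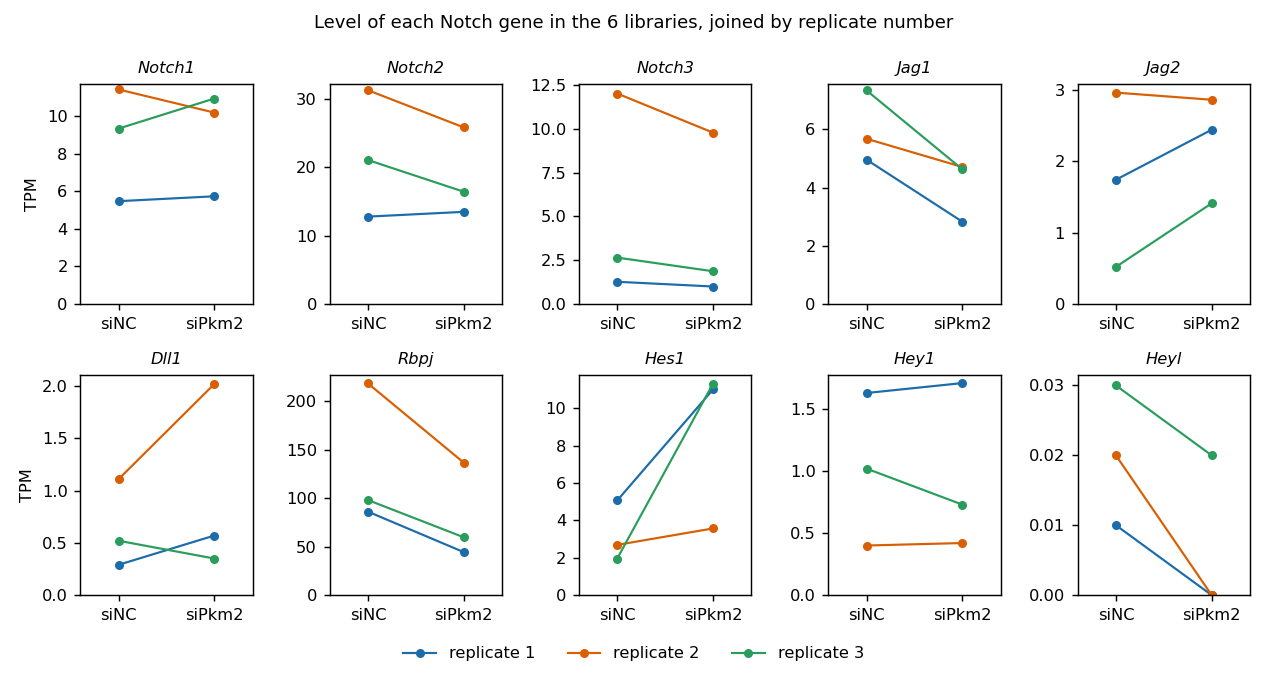
Level of each Notch gene in TPM (vertical axis, linear, from 0, scaled for each gene) in the siNC and siPkm2 libraries, each line joining libraries with the same replicate number. All 3 lines fall for Notch3, Jag1 and Rbpj and all 3 rise for Hes1, and Heyl stays at or below 0.03 TPM.

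Among the receptors, Notch1, the family member with the broadest roles in cell fate, had 5.47, 11.4 and 9.33 TPM in siNC and 5.73, 10.2 and 10.9 TPM in siPkm2. The ranges coincided almost fully, and the pairs differed by 0.06, -0.29 and 0.16 on the log2 scale of CPM (counts scaled to the library total). For Notch1 the log2 fold change was -0.04 (SE 0.28, edgeR adjusted p = 0.966) without the block and -0.02 (adjusted p = 0.890) with it.

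Notch2, a receptor prominent in skeletal cells, was the most abundant receptor at 12.8, 31.3 and 21.1 TPM in siNC and 13.5, 25.9 and 16.5 TPM in siPkm2. The order of the replicates was the same in both groups, with replicate 2 at the top and replicate 1 at the bottom. Its log2 fold change of -0.16 (SE 0.34, edgeR adjusted p = 0.857) became -0.13 (adjusted p = 0.362) with the block, and the difference was not called in either fit.

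Notch3, the receptor known for its role in vascular mural cells, gave 1.27, 12.01 and 2.65 TPM in siNC and 1.00, 9.78 and 1.87 TPM in siPkm2. Replicate 2 was far above the others in both groups, 6.13 times the mean of replicates 1 and 3 in siNC and 6.81 times in siPkm2, yet each siPkm2 library lay below its siNC partner. The pair differences were -0.73, -0.49 and -0.43 on the log2 CPM scale. Without the block the log2 fold change was -0.50 (SE 1.04, edgeR adjusted p = 0.851), and it turned to 0.87 without siNC replicate 2 and reached -1.89 without siPkm2 replicate 2. With the block Notch3 fell by 0.54 on the log2 scale (SE 0.11, edgeR adjusted p = 0.0264).

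Of the summed TPM of the 3 receptors, Notch2 made up 62.2% ± 4.38 in siNC and 59.8% ± 6.0 in siPkm2. Notch1 made up 25.7% ± 4.19 and 29.3% ± 7.63, and Notch3 12.2% ± 8.51 and 10.9% ± 9.08, each with the SD over n = 3. The group means lay within 1 SD of each other for each receptor, but this SD ignores the pairing. In pairs 1, 2 and 3 the Notch3 share went from 6.50%, 21.9% and 8.01% to 4.94%, 21.3% and 6.39%. The Notch1 share went from 28.0%, 20.9% and 28.2% to 28.3%, 22.2% and 37.4%. The Notch2 share rose in pair 1 and fell in pairs 2 and 3. These differences in share were not tested. The Notch3 share separated replicate 2, at 21.9% and 21.3%, from the other 4 libraries, at 4.94% to 8.01%.

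Mural markers were read beside Notch3. Of 8 listed genes 4 reached 1 TPM, and their sum was 368, 226 and 438 TPM in siNC and 150, 176 and 189 TPM in siPkm2. Acta2, a contractile gene that cultured mesenchymal cells also express, gave 86.9 to 284 TPM in siNC and 42.4 to 62.6 TPM in siPkm2, whereas the more restricted markers Rgs5 and Myh11 stayed at or below 0.53 and 0.12 TPM in every library. Pdgfrb also fell in each pair, from 47.1, 52.2 and 79.1 TPM in siNC to 32.5, 43.7 and 48.2 TPM in siPkm2. Cspg4, at 68.1 to 83.4 and 64.1 to 75.3 TPM, and Des, at 0.31 to 2.52 and 3.33 to 6.01 TPM, did not follow Acta2. Of the 6 tested mural markers 3 were higher and 3 lower in siPkm2, with a median log2 fold change of 0.33. With the block edgeR called 1 higher and 2 lower, beside 23.1% of all genes tested. The mural sum of siNC was lowest in replicate 2, where Notch3 was highest. Its part in the Notch3 difference was not tested. Endothelial markers summed to 0.75 to 2.83 TPM.

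Among the ligands, Jag1, a Jagged family ligand expressed in perichondrium and cartilage, had 4.96, 5.68 and 7.34 TPM in siNC and 2.83, 4.71 and 4.63 TPM in siPkm2. The siPkm2 values all lay under the siNC values, which with 3 libraries a group gives the smallest two-sided p that an exact permutation test can reach, 0.1. Pair differences on the log2 CPM scale were -0.84, -0.23 and -0.69. Its log2 fold change was -0.57 (SE 0.21, edgeR adjusted p = 0.235) without the block, and with the block Jag1 fell by 0.58 on the log2 scale (SE 0.15, edgeR adjusted p = 0.0485). Among the 4 genes called with the block, its adjusted p was the largest in that fit and the smallest without the block.

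Jag2, the second Jagged ligand, gave 1.74, 2.96 and 0.52 TPM in siNC and 2.44, 2.86 and 1.41 TPM in siPkm2. The groups overlapped, and pair 2 went against the other two. The fitted log2 change was 0.28 (SE 0.52, edgeR adjusted p = 0.835), and 0.35 (adjusted p = 0.423) with the block. It ranged from 0.02 without siNC replicate 3 to 0.90 without siNC replicate 2, and was 0.04 in the block without pair 1. In pair 3 the estimated counts were 37 and 42 while the TPM of siPkm2 was 2.71 times that of siNC, so that the size of this difference depends on the transcript lengths behind the TPM.

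Dll1, the Delta-like ligand among the listed genes, had low counts, with 11, 44 and 16 estimated counts in siNC and 6, 56 and 12 in siPkm2. These counts corresponded to 0.29, 1.11 and 0.52 TPM and to 0.57, 2.02 and 0.35 TPM. Replicate 2 was the highest of both groups, and in pair 1 siPkm2 had the lower count but the higher TPM. The fitted log2 change was 0.05 (SE 0.87, edgeR adjusted p = 0.984) without the block and -0.14 (adjusted p = 0.809) with it, so no direction can be given.

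Rbpj, which encodes the factor that carries the Notch signal to DNA, was the most abundant gene of the 10, at 86.0, 218 and 98.0 TPM in siNC and 44.4, 137 and 59.6 TPM in siPkm2. Replicate 2 exceeded the mean of the other replicates 2.37-fold in siNC and 2.63-fold in siPkm2, so the groups overlapped although each siPkm2 library lay below its partner. The TPM of siPkm2 was 0.515, 0.626 and 0.609 times that of siNC in pairs 1, 2 and 3. Without the block the log2 fold change was -0.70 (SE 0.52, edgeR adjusted p = 0.540), and it became -0.19 without siNC replicate 2, -0.41 without siPkm2 replicate 1 and -1.30 without siPkm2 replicate 2. With the block Rbpj fell by 0.75 on the log2 scale (SE 0.12, edgeR adjusted p = 0.0177), the smallest adjusted p among the 9 genes.

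Counting could blur some of these genes. Rbpj lies on the forward strand at chr5:53466152-53657362 (GRCm38, GENCODE M21) and overlaps 2 antisense genes. It also has near-identical pseudogene copies, of which Rbpj-ps3 took 0 to 16.6 estimated counts per library against 3127 to 16866 for Rbpj, and Rbpj-ps1 none. Notch1 (chr2:26457903-26516663), Notch3 (chr17:32120820-32166852) and Dll1 (chr17:15367354-15376872), on the reverse strand, also overlap genes of the opposite strand, and the strand setting of the counting is not given in the sources used here. Notch2 shares its strand with 2 overlapping unclassified genes, and Notch1 and Jag2 with 1 microRNA gene each, which no strand setting would separate. No gene of either strand overlaps Jag1 (chr2:137081456-137116644, reverse), Hes1 (chr16:30064384-30067796, forward) or Hey1 (chr3:8663359-8667256, reverse).

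The siRNA gives one sequence feature by which the genes can be compared. The study selected its siPkm2 #3, but no source ties a numbered siRNA to the sequenced cultures. Bases 2 to 8 of a guide strand form the seed, in capitals here, and the letters that pair with it in a message are GAGAAAC. The guide is shown first, followed by the sites in the members, each with its flanks in the longest annotated 3′ untranslated region (UTR) of the gene (GRCm38, forward strand).
siPkm2 #3 guide: uGUUUCUCcagacagcaugtt
Rbpj, chr5:53656720-53656749: ttttgtcattaGAGAAACtggtctgtgtcc
Notch2, chr3:98150191-98150220: tctgtttgtatGAGAAACtcagtaaccaga

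Rbpj and Notch2 held 1 site each and the other 8 genes held none, beside 16.4% of 13186 tested genes with a 3′ UTR of at least 50 bases. Counted without the first few bases of the UTR, the site began at base 3108 of 3739 in Rbpj and at base 2755 of 2914 in Notch2. The median 3′ UTR of the tested genes had 1234 bases. Of the 2 genes Rbpj fell with the block and Notch2 was not called, and Notch3 and Jag1, which fell with the block, held none. A match is a description of the letters and does not show that the siRNA bound there.

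Promoter windows of 300 bases, most of them before the start, were present in the RefSeq table (GRCm38) for 7 of the 10 genes, with 9 windows. GTGGGAA, the core of the RBPJ binding motif, or its complement TTCCCAC occurred in 0 of the 9 windows, against 6.38% of 32851 windows of this length. The variant GTGAGAA or TTCTCAC occurred in 0 of 9, against 4.59%. Hes1, Hey1 and Heyl had no entry.

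Among the targets, Hes1, a repressor of the basic helix-loop-helix family and the best known direct Notch target, had 5.07, 2.69 and 1.96 TPM in siNC and 11.01, 3.57 and 11.3 TPM in siPkm2. The estimated counts behind these levels were 105, 33 and 32 in siNC and 192, 55 and 140 in siPkm2. Replicates 1 and 3 of siPkm2 lay above all siNC libraries, while siPkm2 replicate 2 lay below siNC replicate 1. The ratio of TPM within pairs was 2.17, 1.33 and 5.78 for pairs 1, 2 and 3, so the increase was present in each pair but of unequal size.

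The log2 fold change of Hes1 was 1.33 (SE 0.68, edgeR adjusted p = 0.370) without the block. With the block Hes1 rose by 1.32 on the log2 scale (SE 0.33, edgeR adjusted p = 0.0437), a 2.50-fold increase. It was the largest absolute change among the 9 tested genes in either fit, and the direction opposite to that of Rbpj, Notch3 and Jag1. Without pair 3 the blocked estimate was 0.91 and without pair 2 it was 1.55. Leaving out single libraries moved the unblocked estimate of Hes1 to 2.10 without siNC replicate 1 and to 0.87 without siPkm2 replicate 1.

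Hey1, a second repressor that Notch induces directly, had 1.63, 0.40 and 1.02 TPM in siNC and 1.71, 0.42 and 0.73 TPM in siPkm2. Replicate 2 was the lowest of both groups, and pairs 1 and 2 were almost level. The log2 fold change was -0.08 (SE 0.74, edgeR adjusted p = 0.972) without the block and -0.08 (SE 0.31, edgeR adjusted p = 0.867) with it. Thus Hes1 was called with the block and Hey1 was not, and the difference between their changes was not tested.

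Heyl, the third target, was at the limit of detection with 1, 1 and 2 estimated counts in siNC and 0, 0 and 1 in siPkm2. All 6 libraries lay under 3 counts, so no fold change is given. Of the other targets listed for the wider pathway, Hes5 had a TPM of 0 in every library, Hes7, Hey2 and Nrarp stayed at or below 0.31 TPM and were not tested, and Hes6, which counteracts Hes1, was the only one tested. Hes6 gave 21.6, 32.6 and 24.1 TPM in siNC and 28.4, 39.9 and 27.7 TPM in siPkm2, with a log2 fold change of 0.32 and an edgeR adjusted p of 0.438, or 0.0626 with the block.

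**Figure D2:**
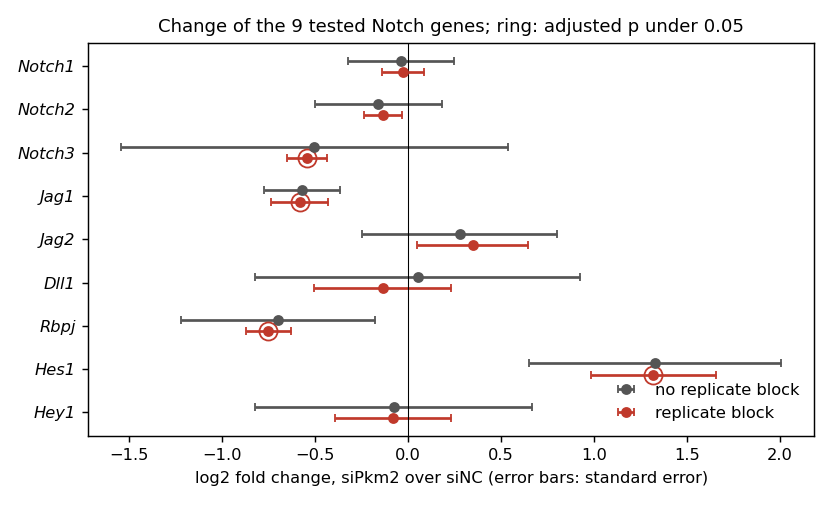
Log2 fold change of siPkm2 over siNC (horizontal axis) for the 9 tested Notch genes, without (grey) and with (red) the replicate block. Bars are the standard error computed from the F statistic of each fit, and rings mark an adjusted p under 0.05. The estimates of both fits nearly coincide, and the bars shorten with the block, for Notch3 from 1.04 to 0.11.

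By level in siNC the genes ranked Rbpj, Notch2, Notch1, Jag1, Notch3, Hes1, Jag2, Hey1, Dll1 and Heyl, on the length-corrected TPM scale. The ranges of neighbors were separate in siNC between Rbpj and Notch2, between Notch2 and Notch1 and between Dll1 and Heyl, and overlapped at the other 6 steps. In siPkm2 the ranges of Notch1 and Jag1 and of Hes1 and Jag2 were separate as well.

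Replicate 2 was the highest library of both groups for 5 of the 9 tested genes, Notch2, Notch3, Jag2, Dll1 and Rbpj, beside 31.7% of all genes tested. It was the lowest of both groups for 1, Hey1, beside 21.4%. Hes1 was lowest in replicate 2 of siPkm2 and had its lowest siNC value in replicate 3. The libraries high in Rbpj and Notch3 were thus those with the inflammatory sum of 34675 TPM or above and with the low chondrocyte sum. Macrophage markers summed to 118 and 87.8 TPM in replicate 2 and to 11.4 to 26.4 TPM elsewhere. Of the 8 genes 5 reached 1 TPM, while Ptprc and Adgre1 stayed at or below 0.03 and 0.10 TPM in every library. Cd68 and Cd14 gave 92.8 and 18.9 TPM in siNC replicate 2 and 53.4 and 29.0 TPM in siPkm2 replicate 2. The part of these differences in the Notch gene levels was not tested.

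Interferon-stimulated genes were read beside the 4 genes. All 8 listed were higher in siPkm2. Of these edgeR passed 0 at an adjusted p under 0.05 without the block and 2 with it, beside 0.0% and 23.1% of all genes tested. The sum of 8 such genes was 26.6, 1833 and 52.3 TPM in siNC and 1242, 3161 and 838 TPM in siPkm2, higher in siPkm2 in each pair. As a ratio of siPkm2 to siNC the step was greatest in pair 1 and smallest in pair 2, whereas the ratio for Hes1 was greatest in pair 3 and smallest in pair 2. Whether it plays a part in the changes of Hes1, Rbpj, Notch3 and Jag1 was not tested. Synovial fibroblast markers summed to 891 to 1749 TPM in siNC and 629 to 1347 TPM in siPkm2, most of it Col1a1. However, 5 of 7 tested were higher in siPkm2, with a median log2 fold change of 1.02 with the block. Of them 3 had an adjusted p under 0.05 in that edgeR fit, beside 23.1% of all genes tested. Among these markers Prg4, the joint lubricant gene, gave 8.10 to 15.0 TPM in siNC and 22.8 to 76.4 TPM in siPkm2. Muscle markers summed to 1.62 to 5.62 and 1.19 to 1.38 TPM.

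**Figure D3:**
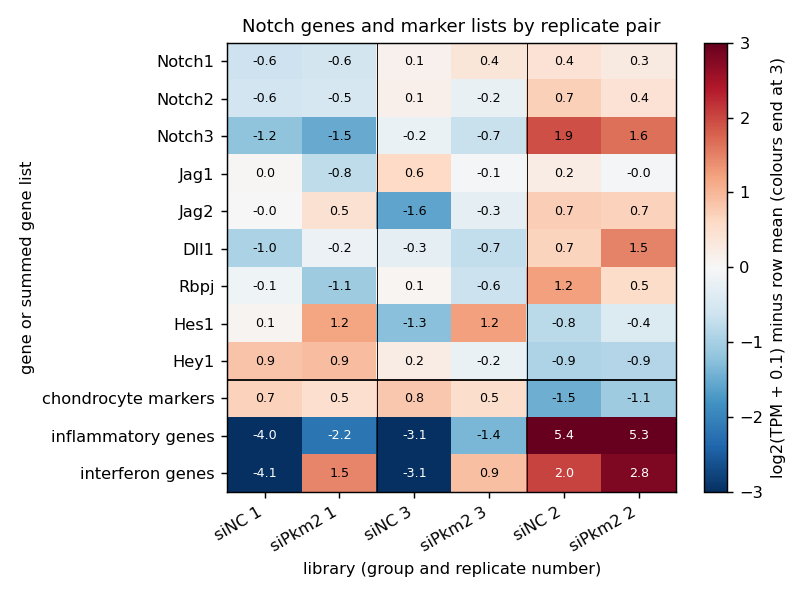
Log2(TPM + 0.1) of each tested Notch gene, and of the summed chondrocyte, inflammatory and interferon lists, minus the mean of the row over the 6 libraries. Columns are libraries ordered by replicate pair. Notch3 reaches 1.9 and 1.6 in the replicate 2 libraries, where the inflammatory sum reaches 5.4 and 5.3 and the chondrocyte sum -1.5 and -1.1.

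The genes whose log2 CPM followed each target most closely over the 6 libraries were sought among 10612 tested genes with a mean of at least 5 TPM. For Hes1 they were Rrp15, a ribosome biogenesis factor (Pearson r = 0.996), the Golgi trafficking gene Rab6a (r = 0.994) and the tryptophanyl-tRNA synthetase gene Wars (r = 0.993). For Hey1 they were Parp1, which encodes a DNA repair enzyme (r = 0.995), Ubac1 (r = 0.992) and Zbtb33 (r = 0.991). These values describe 6 libraries that share a group and a replicate structure, and were not computed for Heyl, which was not tested. Each is among the highest of a search over 10612 genes. The correlation ignores the size of a change, as Rab6a ranged from 73.0 to 85.2 TPM and Hes1 from 1.96 to 11.3 TPM.

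The remaining genes of the pathway were read from a list of 57 ordered by role, of which 49 were tested. Without the block 24 were higher and 25 lower, with a median log2 fold change of -0.03 and 0 genes at an adjusted p under 0.05 by edgeR, 9 at an unadjusted p under 0.05 beside 17.6% of all genes, and 4 by DESeq2 beside 5.38%. With the block 9 of the 49 passed, 3 higher and 6 lower, beside 23.1% of all genes tested, and the median was -0.02. Receptor processing, with 9 of the 49 tested genes, held 4 of these 9 genes, which were picked out by the fit itself.

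Adam10, the metalloprotease that makes the ligand-induced cut in Notch receptors, had 43.4, 37.4 and 49.2 TPM in siNC and 13.4, 13.6 and 14.2 TPM in siPkm2. The groups were far apart, and the siPkm2 libraries lay within 1 TPM of each other. The log2 fold change of Adam10 was -1.62 (SE 0.16, edgeR adjusted p = 0.0738) without the block. With it Adam10 fell by 1.61 on the log2 scale (SE 0.09, edgeR adjusted p = 0.00932), a 3.06-fold decrease.

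Adam17, a related metalloprotease that can also cut Notch, gave 26.9, 39.4 and 30.2 TPM in siNC and 11.2, 18.4 and 13.5 TPM in siPkm2. The groups did not overlap, and with the block Adam17 fell by 1.14 on the log2 scale (SE 0.09, edgeR adjusted p = 0.00942, without it 0.104). Both genes held 2 matches to the seed complement in the longest annotated 3′ UTR, printed here on the strand of the gene (GRCm38, Adam10 forward, Adam17 reverse) since they belong to the 2 enzymes that make the same cut.
Adam10, chr9:70778140-70778169: ttcactccaaaGAGAAACctgttaagtcat
Adam10, chr9:70779606-70779635: caaaaccgctaGAGAAACaatgggatctct
Adam17, chr12:21325172-21325201: tataatgatctGAGAAACggggaagcaact
Adam17, chr12:21324814-21324843: aagaggagcaaGAGAAACctgcttgtatgt

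In contrast to both ADAM proteases, 2 other processing genes rose with the block. Ncstn, which encodes the substrate receptor nicastrin of γ-secretase, went from 77.0, 90.9 and 98.5 TPM in siNC to 142, 139 and 151 TPM in siPkm2, a log2 fold change of 0.80 (SE 0.09, edgeR adjusted p = 0.0118, without the block 0.104). All 3 siPkm2 values of Ncstn were above the siNC values.

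Furin, the convertase that cuts the receptor precursor in the Golgi, had 45.6, 66.6 and 66.3 TPM in siNC and 76.3, 94.6 and 92.8 TPM in siPkm2, without overlap. It rose by 0.61 on the log2 scale with the block (SE 0.09, edgeR adjusted p = 0.0160, without the block 0.168). Of the other 5 processing genes listed, which include further subunits of γ-secretase, edgeR called none in either fit, although Aph1a and Aph1c, named after their values were seen, had adjusted p of 0.0547 and 0.0692 with the block.

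**Figure D4:**
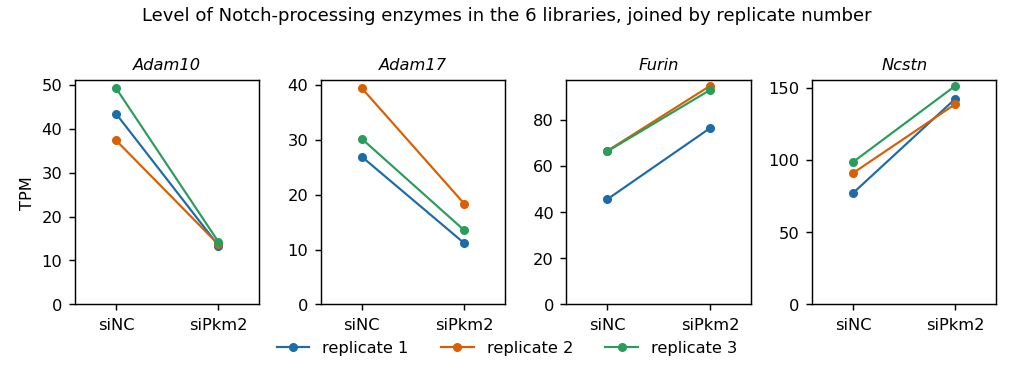
Level in TPM (vertical axis, linear, from 0, scaled for each gene) of the 4 listed Notch-processing genes with an adjusted p under 0.05 in the blocked fit, lines joining libraries with the same replicate number. Adam10 and Adam17 fall and Furin and Ncstn rise in all 3 pairs, without overlap of the groups.

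Around the receptors, 6 further receptor and ligand genes were tested and 1 was called with the block, beside 23.1% of all genes tested. Egfl7, a secreted protein that binds Notch receptors, had 6.76, 15.5 and 7.6 TPM in siNC and 2.79, 8.03 and 5.09 TPM in siPkm2, with overlap, and fell by 1.02 on the log2 scale (edgeR adjusted p = 0.0294, without the block 0.363). Notch4, named after its values were seen as the one remaining receptor, had 1.52, 0.77 and 1.92 TPM in siNC and 0.01, 0.33 and 0.66 TPM in siPkm2. Its groups did not overlap in TPM but did in estimated counts, at 10, 74 and 19 in siNC and 1, 32 and 10 in siPkm2, and its edgeR adjusted p was 0.610, or 0.0803 with the block. Dll3, Dll4 and Dner were not tested, nor was the glycosyltransferase Mfng. Of the 4 tested glycosyltransferases, which modify the receptors with sugars, edgeR called 0 in either fit. The shares of all genes were 0.0% without the block and 23.1% with it.

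Neurl1b, 1 of 4 ubiquitin ligases that act on ligands, gave 1.45, 0.88 and 1.01 TPM in siNC and 0.32, 0.82 and 0.61 TPM in siPkm2. It fell by 1.33 on the log2 scale with the block (edgeR adjusted p = 0.0478, without it 0.158). Neurl1b was the 1 of these 4 genes called, beside 23.1% of all genes tested. Among 7 coactivators 2 were called with the block, beside 23.1% of all genes tested. Maml1 and Maml2, members of the Mastermind family, fell by 0.40 (edgeR adjusted p = 0.0272, without the block 0.202) and by 0.53 (edgeR adjusted p = 0.0406, without the block 0.288). Their groups did not overlap in TPM. In CPM those of Maml2 did, with a lowest siNC value of 27.7 and a highest siPkm2 value of 29.3. Maml1 had 16.8 to 18.9 TPM in siNC and 12.9 to 13.6 TPM in siPkm2, and Maml2 10.5 to 16.1 and 7.51 to 10.1 TPM.

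Of 8 corepressors edgeR called 0 in either fit, beside 0.0% of all genes without the block and 23.1% with it. Of 10 turnover genes 1 was called with the block, beside 23.1% of all genes tested. This was Ccnc, the cyclin that acts with CDK8 on the intracellular domain. Ccnc rose by 0.55 on the log2 scale (edgeR adjusted p = 0.0303, without the block 0.235), with 13.4 to 14.8 TPM in siNC and 13.6 to 20.7 TPM in siPkm2. The siPkm2 library of replicate 2, at 13.6 TPM, fell within the siNC range.

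Of the 49 tested wider genes, 11 held a match to the seed complement, or 22.4%, beside 16.4% of all genes. The 6 genes that fell with the block included 4 with a match, Neurl1b, Adam10, Adam17 and Maml1, and the 3 that rose included 0. The 3′ UTRs of the 4 with a match had 4551, 2132, 1764 and 3165 bases, against a median of 1234 over the tested genes. Those of Egfl7 and Maml2, which fell without a match, had 303 and 2781 bases. Furin, Ncstn and Ccnc, which rose, had 1510, 658 and 2449. The genes were picked out by the fit itself. The difference in matches was not tested, and UTR length was not taken into account.

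**Figure D5:**
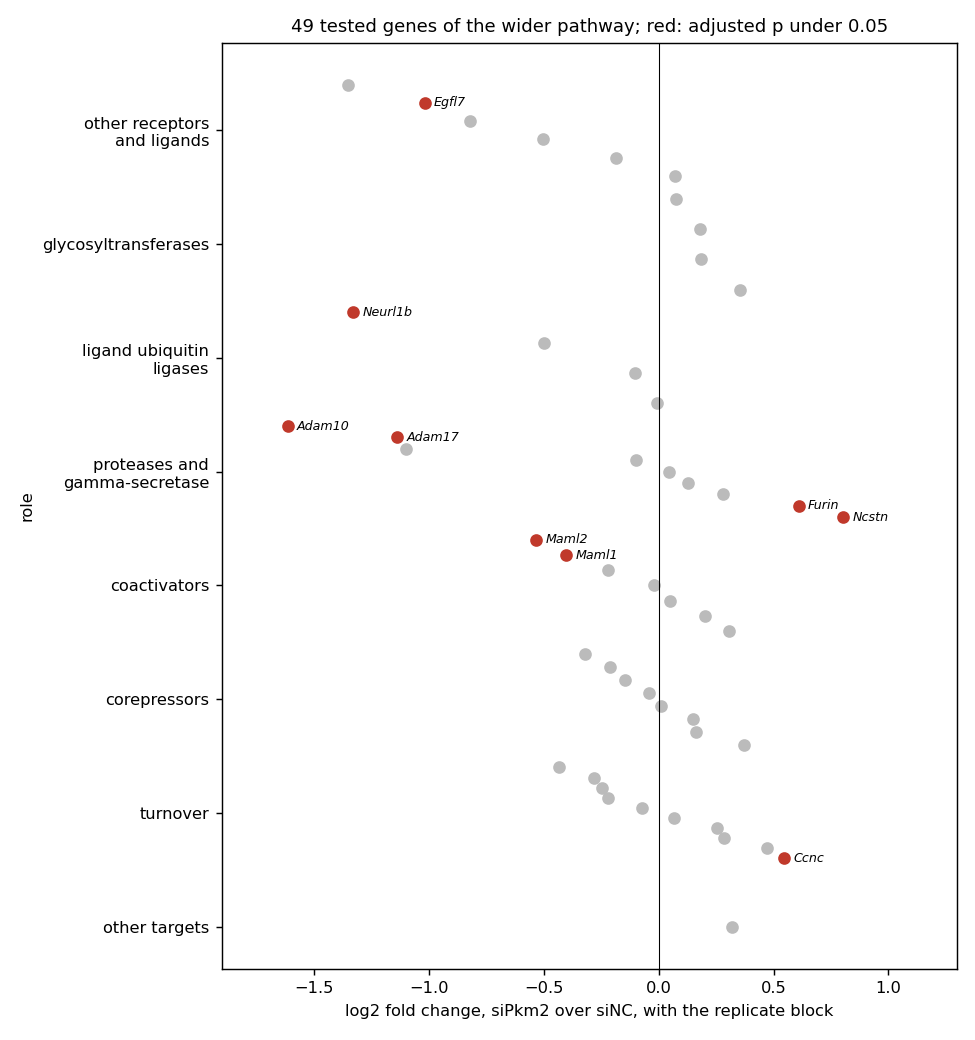
Log2 fold change of siPkm2 over siNC with the replicate block (horizontal axis) for the 49 tested genes of the wider pathway, 1 point a gene, in rows by role. Red points with names have an adjusted p under 0.05. The 6 red points left of 0 reach from -0.40 to -1.61 and the 3 right of it from 0.55 to 0.80, and both signs occur among the processing genes.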

How the data were processed

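RNA-seq of 6 libraries of primary mouse chondrocytes was used, 3 siNC and 3 siPkm2. Per gene, the authors deposited estimated counts (in part fractional, not normalized) and TPM values, which the authors scaled within each library, with the mean TPM of each group. The deposited fold change (a ratio), log2 fold change, p-value and adjusted p-value of the authors' comparison were not used. Aligner, counter and strand setting are not given in the sources used here; the submitters' processing notes name mm9 and edgeR. GENCODE M21 (GRCm38) holds 94.0% of the gene identifiers and gave the positions, so coordinates belong to that build.

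R 4.3.3 was used with DESeq2 1.42.0, edgeR 4.0.16 and limma 3.58.1. Rounded counts of the genes that filterByExpr kept were scaled by TMM factors, and 15269 genes were compared without a block in edgeR's quasi-likelihood test, with p-values adjusted by Benjamini-Hochberg. The threshold of the study's methods, an adjusted p under 0.05 with a change of over 2-fold, is given where the 2-fold threshold is named, and elsewhere called means an adjusted p under 0.05. The SE of an edgeR log2 fold change was its absolute value divided by the square root of the F statistic of the quasi-likelihood test. CPM pair differences used a prior count of 0.5. The scripts were tested on simulated data.

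Both groups carry replicate numbers 1 to 3. Deviations from the group means correlated at 0.625, 0.726 and 0.597 across genes for equal numbers and at 0.126 or below for different ones, so the numbers pair the libraries, and the fit with the replicate number as a block is given where it changes a call. No 2 libraries of a group were duplicates, since 52.9% to 73.5% of genes differed by more than sampling noise. Alternatives were RLE and upper-quartile factors, other filters, DESeq2, log2(TPM + 0.5 or 0.1) with limma, each library or pair left out, and, chosen after seeing the data, the block with other scalings and filters.

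The members, gene lists and tests were chosen with earlier results of these data known. Named were all members, Pkm, Adam10, every wider gene with an adjusted p under 0.05 in either fit, up to 12 by size of change, and for each target the 3 genes of most similar pattern. Results for 2 genes of the wider list are not reported here, and its counts leave them out.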

Additional observations from a re-analysis of the deposited data

How the results depend on the processing

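Without the block, 0 of the 9 Notch genes had an adjusted p under 0.05 under every scaling, filter, tool and left-out library tried. With the replicate block that number was 4, and 1 of them passed the 2-fold threshold, also in DESeq2, with RLE or upper-quartile factors, without a filter, with at least 10 counts in every library, and without replicate 2. It was 0 without replicate 1 or 3. Of the wider list, 0 genes were called without the block beside 0.0% of all genes tested, and 4 with DESeq2 beside 5.38%. The number was 1 without a filter and 0 to 1 with one library left out (1 without siNC replicate 2). For these fits the share of all genes called was not computed, so the counts cannot be set against it. With the block the number was 9 of 49 beside 23.1% of all genes tested, and 14 in DESeq2 beside 26.9%. It was 9 with RLE factors beside 23.3%, 11 with upper-quartile factors beside 23.2% and 10 with at least 10 counts beside 27.1%. Without a filter it was 13 of 55 beside 14.4%. With one pair left out it was 19 of 49 without replicate 2 beside 39.1%, and 0 without replicate 1 or 3 beside 0.0%.

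The Pkm log2 fold change of -2.51 (edgeR adjusted p = 0.0738) passed the threshold with DESeq2 (-2.50), with the block (-2.52 with an adjusted p of 0.00932, -2.51 in DESeq2, -2.52 with RLE, -2.59 with upper-quartile factors, -2.52 without a filter, -2.53 with at least 10 counts, -2.63 without replicate 2) and without siNC replicate 2 (-2.34, adjusted p = 0.0495). In the block it did not pass without replicate 1 (-2.39, adjusted p = 0.0642) or replicate 3 (-2.57, adjusted p = 0.0799). With one library left out it lay between -2.80 and -2.34.

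Signs turned only for genes that were not called in the fit concerned. The Notch1 log2 fold change of -0.04 became 0.041 and 0.043 on the log2(TPM + 0.5) and log2(TPM + 0.1) scales, -0.24 to 0.16 with one library left out and -0.12 to 0.10 in the block with one pair left out. Notch2 ranged from -0.44 to 0.16 and Notch3 from -1.89 to 0.87 with one library left out. Dll1, at 0.05, became -0.0080 with upper-quartile factors, -0.14 with the block, -0.18 with the block in DESeq2, -0.13, -0.20 and -0.14 with the block and RLE factors, upper-quartile factors or no filter, -0.48 without replicate 2, -0.046 without replicate 3 and 0.025 without replicate 1 in the block, and -1.22 to 0.83 with one library left out. It could not be fitted at a minimum of 10 counts. Hey1 ranged from -0.85 to 0.54 with one library left out and from -0.16 to 0.090 in the block with one pair left out. Of the 4 genes called with the block, Rbpj, Jag1 and Hes1 kept their sign under every alternative, and Notch3 under all but the removal of siNC replicate 2. The causes of these shifts were not tested. Counts were at most 62 per library for Dll1, Hey1 and Heyl, and what depth adds to their error was not separated from the spread between libraries.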
